A study of Capsicum annuum with 78 samples.

Results

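Leaves of pepper plants 24 h after NaCl were compared with leaves of plants 24 h after mannitol. The 6 libraries of this comparison, 3 labelled NaCl 24h and 3 labelled Mannitol 24h, were taken by their labels from the 78 libraries of the series. All plants were Capsicum annuum of the cultivar CM334, aged 6 weeks by the labels, and no group carried a mutation or a transgene. The NaCl and mannitol plants were watered with the same molar concentration and the same volume of solution, and each library held leaves pooled from several plants. The 3 mock libraries of 24 h served as the unstressed reference. The remaining libraries came from heat and cold plants at 24 h, and from heat, cold, mannitol, NaCl and mock plants at other time points. The comparison asked how leaves under salt differed from leaves under an osmotic agent at the same time after watering.

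Salt acts on a plant in a pair of ways. The dissolved salt lowers the water potential of the soil, so that roots take up less water, and sodium and chloride ions then move into the leaves, where they disturb the balance of ions and can become toxic. Mannitol, a sugar alcohol that plants take up slowly, lowers the water potential without adding ions, and is used to imitate the osmotic part. Water deficit raises abscisic acid, the hormone that closes stomata and switches on dehydration genes through protein phosphatases of type 2C and transcription factors of the NAC family. NaCl splits into ions in solution, so equal molar doses give more dissolved particles with NaCl than with mannitol. A stronger osmotic effect and an ionic effect therefore cannot be told apart in this design. In whole leaves, fewer cells of a type and less RNA per cell cannot be told apart either.

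The NaCl leaves differed from the mannitol leaves in many genes at 24 h, in nearly equal numbers in each direction. Of 19588 genes tested, 1860 (9.5%) were differentially expressed genes (DEGs), that is, genes with an adjusted p-value under 0.05 in edgeR's quasi-likelihood test and an absolute log2 fold change over 1. Of these, 948 (4.84%) were higher and 912 (4.66%) were lower in NaCl leaves. With the adjusted p-value alone, 6821 genes (34.8%) passed, 3706 of them higher and 3115 lower. The split rested on the scaling of the libraries. When the libraries were scaled by their totals alone, without TMM factors, the median log2 fold change of all genes moved to 0.23, and 1402 genes were higher and 584 lower, so that 70.6% of the DEGs were higher in place of 51%. The median log2 fold change of all genes tested was 0.05 and the median size, in either direction, was 0.34. All 3 NaCl libraries lay above all 3 mannitol libraries in 27.3% and below them in 21.2% of all genes tested, and among the DEGs this held for 919 of the higher and 879 of the lower ones. All fold changes below are log2 values of NaCl over mannitol at 24 h unless another comparison is named.

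Large changes were more often on the higher side. The median log2 fold change was 1.63 for the 948 higher DEGs and -1.30 for the 912 lower DEGs. A change over 2 was fitted for 327 higher and 99 lower DEGs, and a change over 3 for 113 higher and 14 lower DEGs. Part of this gap lay in genes near the detection floor, taken as 3 counts in each library of a group. At or under this floor in every mannitol library were 132 of the higher DEGs, 9 of them without a single count, and 50 of the lower DEGs were at or under it in every NaCl library, 5 of them without a count. With these genes set to the bound that the floor gives, the medians were 1.51 and -1.28. Among the DEGs above the floor in both groups, 209 higher and 61 lower ones changed by over 2, with extremes of 5.81 and -4.79.

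**Figure D1:**
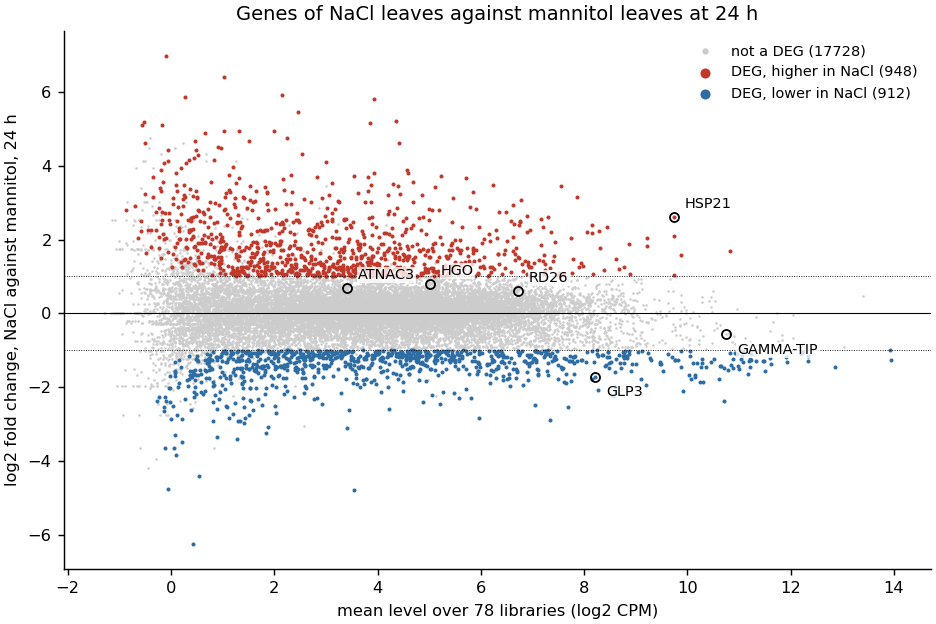
The log2 fold change of NaCl over mannitol at 24 h is plotted against the mean level of each gene over 78 libraries in log2 CPM, for 19588 genes. Red points are the 948 DEGs higher in NaCl leaves, blue points the 912 DEGs lower in them, dotted lines mark the fold limit of 1, and circles mark 6 genes with a symbol. The largest positive changes lie at low and middle levels, while lower DEGs reach the right end of the axis.

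The higher and lower DEGs stood at different levels. The tested genes were ordered by their mean level and divided into 4 parts of 4897 genes. The share of higher DEGs was 7.05% in the part with the lowest levels, then 5.47%, 3.59%, and 3.25% in the part with the highest levels. In the same order, 252, 199, 158 and 303 genes of each part were lower DEGs. The 912 lower DEGs held 11.0%, 9.78% and 11.6% of all counts in the NaCl libraries, against 24.9%, 21.3% and 23.5% in the mannitol libraries and between 25.1% and 25.7% in the mock libraries. The 948 higher DEGs held 6.94%, 8.34% and 7% of the counts in the NaCl libraries, against 1.73%, 2.44% and 2.01% in the mannitol libraries and between 1.14% and 1.54% in the mock libraries. These lists were chosen by the same contrast, so the shares describe their size only.

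The 6 libraries were similar in depth. Total counts were 6340577, 6643884 and 6446720 in NaCl leaves, 6419477, 5891708 and 5619181 in mannitol leaves, and between 6276225 and 7216427 in mock leaves. The correlation of log2 levels between a NaCl and a mannitol library ran from 0.943 to 0.963, and between replicates of a group from 0.982 to 0.987. The scaling factors were between 1.03 and 1.05 in NaCl leaves and between 0.902 and 0.945 in mannitol leaves. Replicates of a group differed by more than counting noise, with a chi-square per degree of freedom of 4.30 and 4.11 for the pairs with NaCl replicate 2 and 2.32 for the other NaCl pair, and of 5.74, 2.42 and 2.88 for the mannitol pairs, the first being replicates 1 and 2. The labels name no batch. The leaf label was set beside 3 photosynthesis genes in the 9 libraries of NaCl, mannitol and mock at 24 h, in CPM, the count scaled to the library total after TMM adjustment. PSBP-1 had between 113 and 286 CPM and PGR5-LIKE A between 96.1 and 126 CPM. PSBB, a photosystem II gene that land plants encode in the chloroplast and of which copies may share reads, had between 2.54 and 5.37 CPM.

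A symbol could be given to 27 genes, each read as the pepper match of an Arabidopsis gene that the study labelled in its heat map of top genes. The identifiers in the heat map were partly blurred, so a reading may be wrong. The genes read ranked from 2 (HSP21) to 368 (FC1) for their stress against mock, with MOS4 at 222 and CUTA at 212. The roles given here are those of the Arabidopsis genes. The study chose these genes for their response to a stress against mock in these same libraries, so their response to NaCl or mannitol against mock is no independent evidence. For genes chosen on NaCl or mannitol, the difference between these stresses is not free of that choice either. Of the 27 genes, 12 were higher and 4 were lower in NaCl leaves by the adjusted p-value, and 11 did not pass, beside shares of 18.9% higher and 15.9% lower over all genes tested. With library totals 18 were higher and 4 lower, and 5 did not pass, while the median log2 fold change of all genes tested moved to 0.23. The shares over all genes tested with library totals are not given here, so these counts cannot be set against them. The median log2 fold change of the 27 was 0.24, beside 0.05 for all genes tested. Of the 27 genes, 1 was a higher DEG (HSP21) and 1 was a lower DEG (GLP3), beside 4.84% higher and 4.66% lower DEGs over all genes tested. The other genes changed by less than the fold limit of 1. With library totals FC1 was a DEG too (log2 fold change 1.11, edgeR adjusted p = 2.15e-04).

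Of the genes of abscisic acid signalling, the phosphatases ABI2 and ATPP2CA did not pass and the transcription factors RD26 and ATNAC3 did. ABI2, a phosphatase that restrains the abscisic acid response, had 237, 247 and 232 CPM in NaCl leaves, against 196, 220 and 226 CPM in mannitol leaves and 62.5, 72.3 and 61.2 CPM in mock leaves. The NaCl libraries lay just above the mannitol libraries, and both stresses lay far above mock. The log2 fold change of ABI2 was 0.16 ± 0.12, which did not pass (edgeR adjusted p = 0.313), although with library totals it was 0.33 and did (edgeR adjusted p = 0.0273). Here and below, the error of a log2 fold change is the SE from the fit over all 78 libraries, with 3 libraries in each group. ATPP2CA, another such phosphatase, had 1356, 1540 and 1441 counts in NaCl leaves, against 1029, 1187 and 1056 counts in mannitol leaves and between 252 and 270 counts in mock leaves. In TMM-scaled CPM its NaCl and mannitol libraries overlapped, with a log2 fold change of 0.11 ± 0.15 (edgeR adjusted p = 0.608), and with library totals the change was 0.28 and did not pass either (edgeR adjusted p = 0.135).

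RD26 and ATNAC3, both NAC transcription factors of the dehydration response, rose in NaCl leaves. RD26 had 136, 180 and 157 CPM in NaCl leaves, against 85.2, 115 and 111 CPM in mannitol leaves and 13.2, 15.9 and 12.8 CPM in mock leaves. Every NaCl library was above every mannitol library, and the log2 fold change was 0.60 ± 0.17 (edgeR adjusted p = 0.00333). ATNAC3 stood at a lower level, with 11.6, 18.6 and 14.6 CPM in NaCl leaves, against 8.82, 9.53 and 9.59 CPM in mannitol leaves and 1.93, 1.85 and 0.155 CPM in mock leaves. Its groups did not overlap, and its log2 fold change was 0.68 ± 0.25 (edgeR adjusted p = 0.0286). The call of ATNAC3 was lost without NaCl replicate 2 or 3 or any of the 3 mannitol replicates (log2 fold changes between 0.45 and 0.66, adjusted p in edgeR from 0.0677 to 0.247). The call of RD26 was lost without NaCl replicate 2 (0.45, edgeR adjusted p = 0.0583) or mannitol replicate 1 (0.44, edgeR adjusted p = 0.0727).

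HSP21, a small heat shock protein that protects the chloroplast, had the largest change of the 27 genes. It had 280, 467 and 278 counts in NaCl leaves (42.1, 67.9 and 41.9 CPM), against 34, 58 and 44 counts in mannitol leaves (5.88, 10.4 and 8.61 CPM) and 3, 6 and 4 counts in mock leaves. The NaCl libraries were all far above the mannitol libraries, with a log2 fold change of 2.61 ± 0.29 (edgeR adjusted p = 9.11e-11), a 6.11-fold difference. In heat leaves at 24 h the same gene averaged 8360 ± 747 CPM (SD, n = 3), so its NaCl level was low on the scale of a heat response. ATJ2, a co-chaperone of the DnaJ family, had a log2 fold change of 0.09 ± 0.09 with overlapping libraries (edgeR adjusted p = 0.466), and 0.27 with library totals, which passed (edgeR adjusted p = 0.00708). Of the ubiquitin-conjugating enzymes, UBC28 rose by 0.39 ± 0.09 (edgeR adjusted p = 2.12e-04) and UBC13 rose by 0.30 ± 0.10 (edgeR adjusted p = 0.0111), both on the log2 scale. The call of UBC13 was lost without NaCl replicate 1 or 2 or mannitol replicate 1 or 3 (log2 fold changes between 0.22 and 0.26, adjusted p in edgeR from 0.0651 to 0.134).

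HGO and AAP7 rose in NaCl leaves. HGO, the homogentisate dioxygenase of tyrosine breakdown, had 56.3, 56.3 and 54.3 CPM in NaCl leaves, against 27.1, 36.1 and 33.6 CPM in mannitol leaves and 10.7, 12.1 and 12.2 CPM in mock leaves. The mannitol libraries of HGO lay between the NaCl and the mock libraries, and its log2 fold change was 0.78 ± 0.11 (edgeR adjusted p = 4.92e-08). AAP7, of the amino acid permease family, averaged 555 ± 26.7 CPM in NaCl leaves, 423 ± 44.3 CPM in mannitol leaves and 179 ± 38.6 CPM in mock leaves (SD, n = 3 each), with a log2 fold change of 0.39 ± 0.14 (edgeR adjusted p = 0.0271). The call of AAP7 was lost when any of the 6 libraries was left out (log2 fold changes between 0.27 and 0.40, adjusted p in edgeR from 0.0543 to 0.222).

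The genes that fell in NaCl leaves were GLP3, GAMMA-TIP, PSBP-1 and ATACP5. GLP3, a germin-like protein of the cell wall, had 78, 47.2 and 78.6 CPM in NaCl leaves, against 271, 156 and 242 CPM in mannitol leaves and 1050, 1040 and 1280 CPM in mock leaves. The groups did not overlap and its log2 fold change was -1.72 ± 0.25 (edgeR adjusted p = 9.46e-08). GAMMA-TIP, an aquaporin of the vacuole membrane that passes water, had 1100, 1050 and 1190 CPM in NaCl leaves, against 1840, 1390 and 1710 CPM in mannitol leaves and 2670, 2850 and 3080 CPM in mock leaves. It fell by 0.56 on the log2 scale, with an SE of 0.11 (edgeR adjusted p = 2.34e-05), and its mannitol libraries again lay between the NaCl and the mock libraries.

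Of the photosynthesis genes, PSBP-1 fell. PSBP-1, a subunit of the oxygen-evolving complex of photosystem II, averaged 190 ± 17.9 CPM in NaCl leaves, 269 ± 17.9 CPM in mannitol leaves and 124 ± 10.1 CPM in mock leaves, with a log2 fold change of -0.50 ± 0.12 (edgeR adjusted p = 6.86e-04). Both stresses were thus above mock, with mannitol the higher. PGR5-LIKE A, of the electron flow around photosystem I, had overlapping libraries and a log2 fold change of 0.09 ± 0.10 (edgeR adjusted p = 0.512), which with library totals was 0.27 and passed (edgeR adjusted p = 0.0132). PSBB had 0.12 ± 0.36 (edgeR adjusted p = 0.837). FC1, a ferrochelatase that makes heme, differed in another way. It had 26.9, 30.2 and 24.4 CPM in NaCl leaves, against 14.7, 15.1 and 12.7 CPM in mannitol leaves and 28.1, 30.9 and 28.1 CPM in mock leaves. The NaCl and mock libraries of FC1 overlapped, and the mannitol libraries were below both, with a log2 fold change of 0.94 ± 0.23 (edgeR adjusted p = 9.98e-04).

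Among the remaining genes, the ATU2AF35B copies and ACT7 rose. The copies match the same small subunit of a splicing factor and may share reads. They had log2 fold changes of 0.63 ± 0.11 (scaffold644.36, edgeR adjusted p = 5.38e-06) and 0.80 ± 0.15 (scaffold386.32, edgeR adjusted p = 3.04e-05). ACT7, an actin of growing tissue, rose by 0.47 ± 0.10 (edgeR adjusted p = 1.19e-04), and ACA2 rose by 0.69 ± 0.22 (edgeR adjusted p = 0.0106). The call of ACA2 was lost without NaCl replicate 2 or mannitol replicate 1 or 3 (log2 fold changes between 0.57 and 0.60, adjusted p in edgeR from 0.0619 to 0.0685). ATACP5, an acid phosphatase, averaged 10.01 ± 1.36 CPM in NaCl leaves, 15.6 ± 3.08 CPM in mannitol leaves and 7.23 ± 0.615 CPM in mock leaves, and fell by 0.64 on the log2 scale with an SE of 0.17 (edgeR adjusted p = 0.00241). SRG3, a phosphodiesterase of phosphate starvation, did not pass, with a log2 fold change of -0.01 (0.16 with library totals) and 50.1 ± 6.57 CPM in NaCl leaves, 50.6 ± 6.07 CPM in mannitol leaves and 9.70 ± 0.782 CPM in mock leaves. MOS4, of a complex in splicing and plant immunity, had a log2 fold change of 0.11, AGD6, of a family that regulates vesicle traffic, had 0.24, and the chitinase-like CTL2 had -0.10 (0.07 with library totals). CUTA had 0.04 and ATPS2 had 0.51, and none of these 5 genes passed. With library totals MOS4 (0.29, edgeR adjusted p = 0.00727), AGD6 (0.42, edgeR adjusted p = 2.52e-04) and ATPS2 (0.68, edgeR adjusted p = 0.0416) did, and AGD6 also passed with the 6 libraries alone (0.20, edgeR adjusted p = 0.0387) and with the 9 libraries of 24 h (0.21, edgeR adjusted p = 0.0308).

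**Figure D2:**
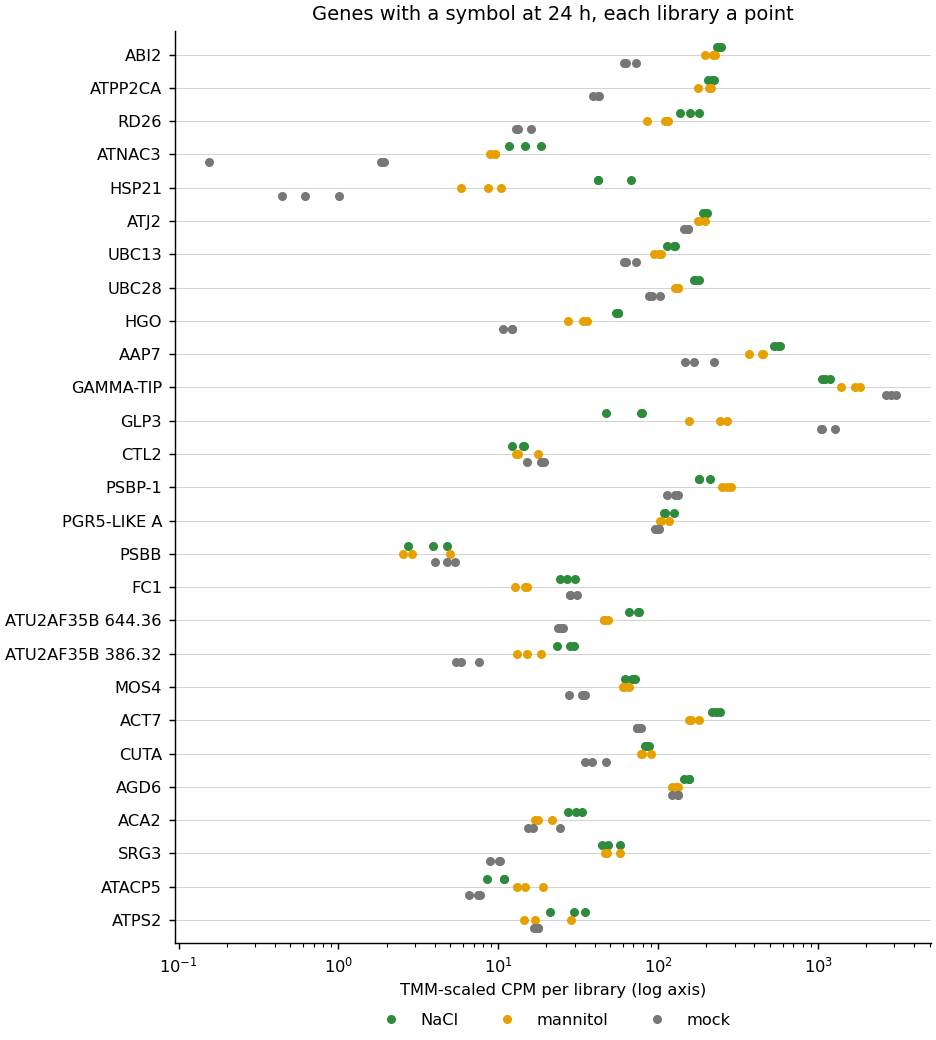
Each point is a library at 24 h and the horizontal log axis gives its scaled level in CPM, for 27 genes with a symbol, with NaCl in green, mannitol in orange and mock in grey. NaCl and mannitol points overlap for genes such as SRG3 and ATPP2CA, where both lie apart from mock, and for PGR5-LIKE A, where both lie near mock. HSP21 and GLP3 show the widest gap between NaCl and mannitol, and FC1 has mannitol below both other groups.

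The 4 DEGs without an annotation described next were picked for the smallest p-values in each direction and no overlap between groups, so their large changes follow from the choice. scaffold338.52 had 467, 549 and 443 CPM in NaCl leaves, against 47.4, 58.8 and 56.9 CPM in mannitol leaves and between 6.33 and 7.12 CPM in mock leaves, an 8.95-fold difference (log2 fold change 3.16 ± 0.20, edgeR adjusted p = 5.33e-19). scaffold394.89 had 120, 144 and 138 CPM in NaCl leaves, against 21.4, 34.9 and 27.2 CPM in mannitol leaves and between 3.02 and 3.56 CPM in mock leaves (log2 fold change 2.27 ± 0.16, edgeR adjusted p = 2.96e-17). Both were above mock in mannitol leaves too, by 3.00 and 3.05 on the log2 scale. On the other side, scaffold411.92 had 48.9, 43.8 and 62.2 CPM in NaCl leaves, against 455, 313 and 379 CPM in mannitol leaves and 452, 491 and 532 CPM in mock leaves (log2 fold change -2.89 ± 0.16, edgeR adjusted p = 1.66e-21). Its mannitol level was close to mock. scaffold623.44 had 138, 144 and 160 CPM in NaCl leaves, against 729, 652 and 717 CPM in mannitol leaves and between 366 and 429 CPM in mock leaves (log2 fold change -2.25 ± 0.15, edgeR adjusted p = 6.43e-18), so that mannitol was above mock and NaCl below it.

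Against mock, each stress was compared with the same 3 mock libraries, so the values below stand side by side and their likeness is no result. The lists were chosen on the same NaCl and mannitol libraries, so the direction of their medians against mock is largely set by that choice. NaCl against mock at 24 h gave 4670 DEGs (23.8%), 2517 higher (12.8%) and 2153 lower (11%). Mannitol against mock gave 2402 (12.3%), 1375 higher (7.02%) and 1027 lower (5.24%). The 948 genes higher in NaCl than in mannitol had a median log2 fold change of 1.88 in NaCl against mock and of 0.07 in mannitol against mock, beside 0.08 and 0.03 over all genes tested. The 912 lower genes had medians of -1.57 in NaCl against mock and of -0.20 in mannitol against mock. Of the 948 higher genes, 703 (74.2%) were higher DEGs of NaCl against mock and 198 (20.9%) were higher DEGs of mannitol against mock, while 71 (7.49%) were lower DEGs of mannitol against mock. Of the 912 lower genes, 703 (77.1%) were lower DEGs of NaCl against mock and 105 (11.5%) were lower DEGs of mannitol against mock.

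The difference between the stresses was tested at the other time points in separate libraries. NaCl against mannitol gave 301 DEGs (1.54%) at the 3 h time point. The count was 253 (1.29%) after 6 h, with 119 higher (0.608%) and 134 lower, and 116 (0.592%) after 12 h. After 72 h it was 741 (3.78%), most of them lower in NaCl leaves, 547 against 194 higher. The change of the difference itself was tested in the same fit, as the difference at 24 h minus the mean of those at 3, 6, 12 and 72 h. It passed for 1246 genes (6.36%), with 649 positive (3.31%) and 597 negative (3.05%), and for 973 genes when 72 h was left out of the mean, a choice made after the data had been seen. The 24 h time point was itself picked as the peak of the NaCl response in this series. Part of its larger count of DEGs and of these departures may follow from that choice.

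The 24 h genes already leaned the same way early on. Of the 948 higher genes, 70 were higher DEGs at 3 h (7.38% of them, beside 1.04% of all genes tested, and 34.5% of the 203 higher DEGs of 3 h) and 1 was a lower DEG. Their median log2 fold change was 0.54 at 3 h, 0.35 after 6 h and 0.39 after 12 h, beside medians between 0.00 and 0.02 over all genes tested. Of the 912 lower genes, 32 were lower DEGs at 3 h (3.51%, beside 0.5%), 60 at 6 h (6.58%, beside 0.684%) and 15 at 12 h (1.64%, beside 0.296%), with medians of -0.29, -0.32 and -0.18. At 72 h the picture was different for the higher genes. Of the 948, 97 (10.2%, beside 2.79%) were lower DEGs and 14 (1.48%, beside 0.99%) were higher DEGs at 72 h, with a median of -0.40. The 912 lower genes had a median of -0.01 at 72 h, with 45 lower (4.93%, beside 2.79%) and 19 higher DEGs (2.08%, beside 0.99%). Both shares were thus above those over all genes tested.

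**Figure D3:**
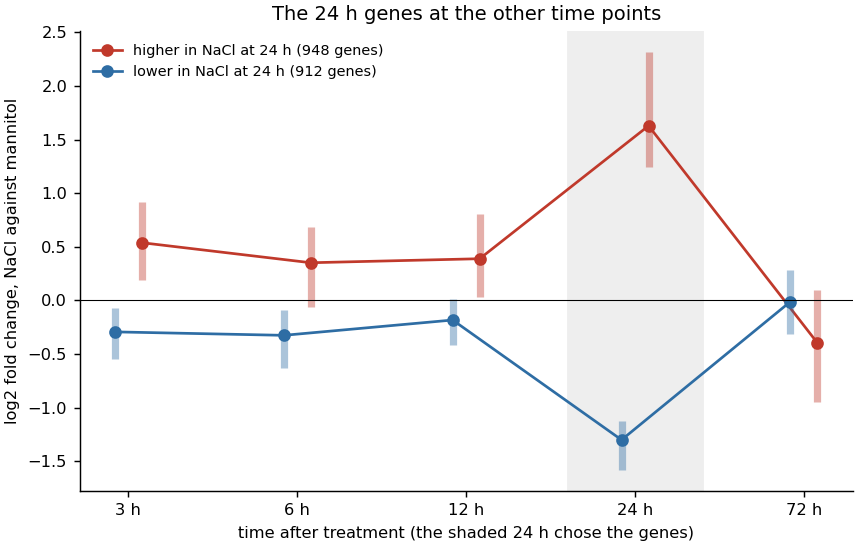
The median log2 fold change of NaCl over mannitol is plotted at 5 time points for the 948 genes higher (red) and the 912 genes lower (blue) in NaCl leaves at 24 h, with bars for the middle range from the lower to the upper quartile of genes. The shaded 24 h chose the genes, and at 72 h the red median is -0.40.

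RD26, ATNAC3 and SRG3 were lower in NaCl than in mannitol leaves at 72 h. RD26 averaged 158 ± 21.9 CPM in NaCl leaves and 104 ± 16.3 CPM in mannitol leaves at 24 h, and 69.0 ± 8.12 CPM in NaCl leaves and 166 ± 19.3 CPM in mannitol leaves at 72 h (SD, n = 3 each). Its log2 fold change was 0.58 at 3 h (edgeR adjusted p = 0.0167), did not pass at 6 and 12 h, and was -1.27 at 72 h (edgeR adjusted p = 1.44e-07). ATNAC3 fell by 1.67 on the log2 scale at 72 h (edgeR adjusted p = 5.23e-06), and its difference at 24 h exceeded the mean of the others by 1.10 ± 0.28 (edgeR adjusted p = 0.00248). SRG3 had a log2 fold change of -1.95 at 72 h (edgeR adjusted p = 1.26e-09).

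Among the 5 time points, ABI2 differed most at 3 h, while ATPP2CA differed by similar sizes at 3 h and 72 h, in opposite directions. The differences at 3 h and 72 h were not tested against each other. ABI2 averaged 321 ± 25.3 CPM in NaCl leaves and 182 ± 37.4 CPM in mannitol leaves at 3 h, a log2 fold change of 0.82 (edgeR adjusted p = 1.81e-06). ATPP2CA averaged 311 ± 23.8 CPM in NaCl leaves and 191 ± 41.8 CPM in mannitol leaves at 3 h, a log2 fold change of 0.70 (edgeR adjusted p = 8.24e-04). At 72 h both were lower in NaCl leaves, by log2 fold changes of -0.41 for ABI2 (edgeR adjusted p = 0.00974) and -0.67 for ATPP2CA (edgeR adjusted p = 7.63e-04).

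HSP21 was at a low level in both stresses from 3 to 12 h. At 12 h it averaged 1.21 ± 0.532 CPM in NaCl leaves, 1.29 ± 0.169 CPM in mannitol leaves and 3.06 ± 0.116 CPM in mock leaves. At 72 h it had 2.53, 2.22 and 15.1 CPM in NaCl leaves and 6.12, 17.1 and 9.35 CPM in mannitol leaves, which overlapped. The difference of HSP21 at 24 h exceeded the mean of the others by 2.88 ± 0.52 (edgeR adjusted p = 1.73e-05). That mean rests in part on few counts of HSP21. At 3 h there were 1 to 4 counts in NaCl libraries and 1 to 6 in mannitol libraries. At 12 h there were 5 to 13 and 7 to 11 counts. GAMMA-TIP, in contrast, was lower in NaCl leaves at every time point, with log2 fold changes between -0.75 and -0.56 and adjusted p-values in edgeR from 4.65e-07 to 2.15e-04, and its difference at 24 h did not depart from the mean of the others by the test (0.07 ± 0.12, edgeR adjusted p = 0.74). GLP3 was lower in NaCl leaves at 3, 6, 12 and 24 h, with log2 fold changes of -1.20, -1.09, -0.82 and -1.72, and had 0.19 at 72 h (edgeR adjusted p = 0.637).

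**Figure D4:**
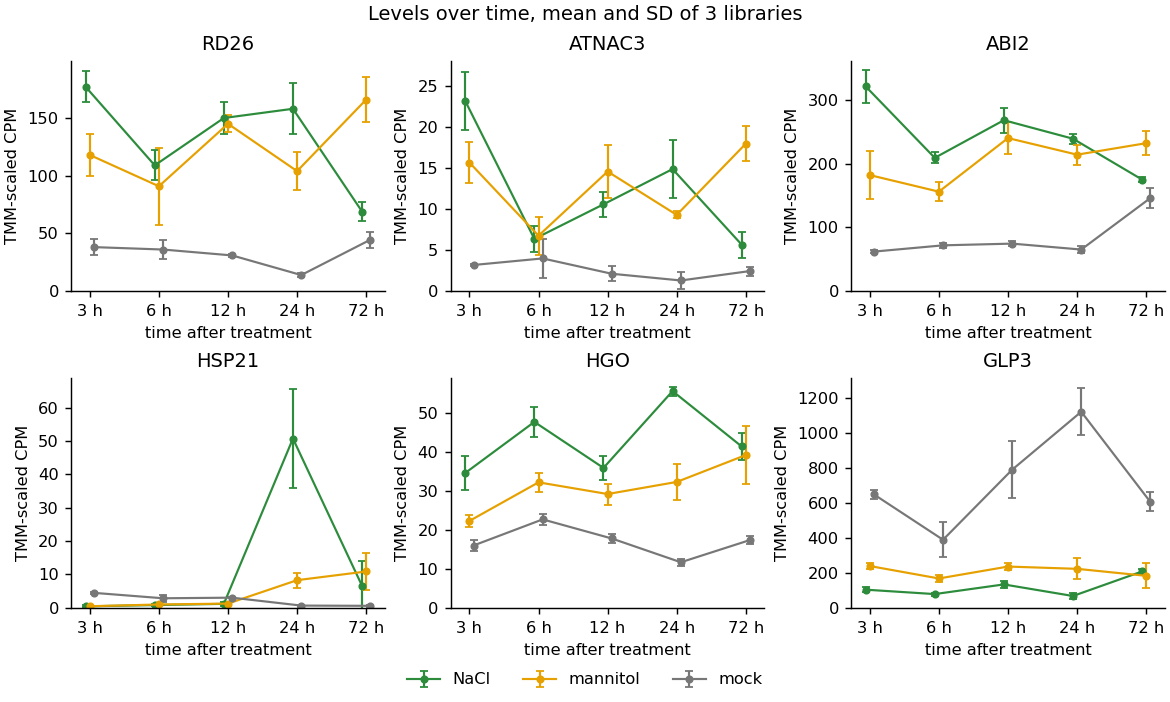
The mean scaled level in CPM is plotted at 5 time points for RD26, ATNAC3, ABI2, HSP21, HGO and GLP3, with NaCl in green, mannitol in orange and mock in grey, and bars of 1 SD over 3 libraries. RD26 and ATNAC3 have NaCl above mannitol at 24 h and below it at 72 h, HSP21 stands out at 24 h in NaCl leaves, and GLP3 is lowest in NaCl leaves up to 24 h.

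The same genes were then followed in heat and cold leaves at 24 h, none of which belongs to the 6 libraries compared. Cold and heat were both set against the same mock libraries. Of the 948 genes higher in NaCl than in mannitol, 451 (47.6%, beside 13.1% of all genes tested) were higher and 36 (3.8%, beside 10.7%) were lower DEGs of cold against mock, with a median log2 fold change of 1.14. Of the 912 lower genes, 440 (48.2%, beside 10.7%) were lower and 38 (4.17%, beside 13.1%) were higher DEGs of cold, with a median of -0.97. The 451 genes were 17.6% of the 2563 higher DEGs of cold, and the 440 genes were 20.9% of its 2103 lower DEGs.

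In heat leaves 16.1% of the lower genes and 50.6% of the higher genes had a positive log2 fold change over mock, beside 51.5% of all genes tested. Of the 912 lower genes, 387 (42.4%, beside 11%) were lower and 22 (2.41%, beside 11.5%) were higher DEGs of heat against mock, with a median of -0.84. Of the 948 higher genes, 210 (22.2%, beside 11.5%) were higher and 141 (14.9%, beside 11%) were lower DEGs of heat, with a median of 0.03. With library totals these shares were 28.7% and 9.34%. The shares over all genes tested with library totals are not given here, so this move cannot be set against them. The 387 genes were 17.9% of the 2156 lower DEGs of heat, and the 210 genes were 9.34% of its 2249 higher DEGs. HSP21 and scaffold394.89 were among those far higher in heat leaves, with log2 fold changes of heat over mock of 13.54 and 8.29. Over all 19588 genes, the log2 fold change of NaCl over mannitol had a Pearson correlation of 0.378 (Spearman 0.403) with that of cold over mock and of 0.183 (Spearman 0.286) with that of heat over mock, given as a description across genes, which are not independent replicates.

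**Figure D5:**
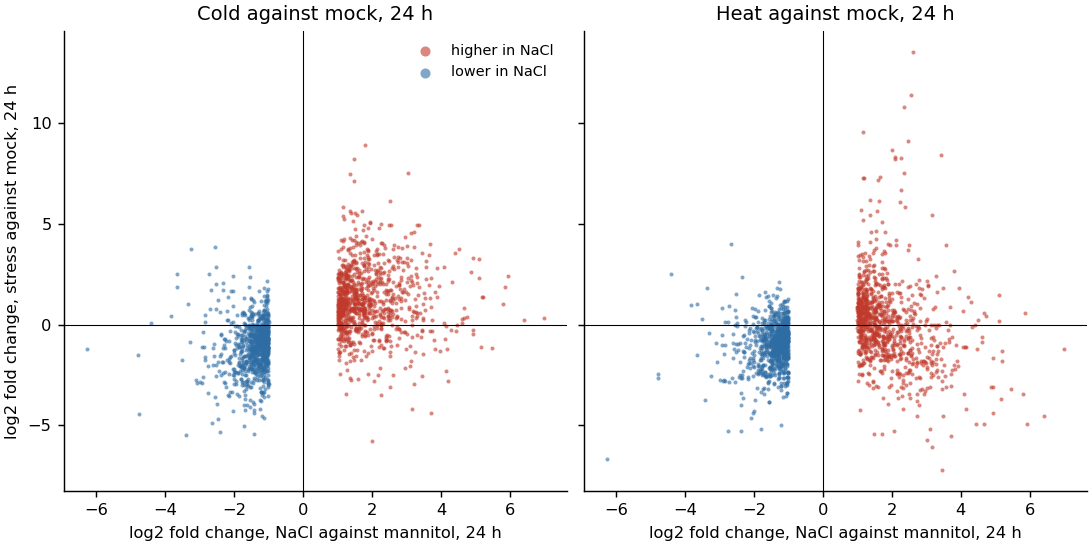
Each point is a DEG of NaCl against mannitol at 24 h, with its log2 fold change there on the horizontal axis and that of cold (left) or heat (right) against mock at 24 h on the vertical axis; red genes are higher and blue genes lower in NaCl leaves. In the cold panel most red points lie above and most blue points below the zero line, and in the heat panel the red points spread to both sides of it.

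The genes also differed between mock leaves of 12 h and 24 h, which were taken at different times of the day. Of the 948 higher genes, 174 (18.4%, beside 8.27%) were higher and 29 (3.06%, beside 6.72%) were lower DEGs of mock 12 h over mock 24 h. Of the 912 lower genes, 270 (29.6%, beside 6.72%) were lower and 58 (6.36%, beside 8.27%) were higher. scaffold411.92 was one of these, with a log2 fold change of -6.74 between mock at 12 h and mock at 24 h. NaCl and mannitol leaves were harvested at the same time after watering, and the part of a shifted daily rhythm in the 24 h difference was not tested.

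Some of the DEGs lay side by side. Of the 948 higher genes, 153 (16.1%) had a gene with the next or the previous number on its scaffold that was also higher, and of the 912 lower genes, 120 (13.2%) had such a neighbour that was also lower. Over all genes tested, 5.48% had a higher and 6% a lower neighbour of this kind. Runs of at least 3 consecutive numbers in the same direction were found 10 times among the higher genes (33 genes) and 6 times among the lower genes (20 genes). The longest run was 5 genes of scaffold257, numbers 13 to 17, whose summed counts were between 8033 and 12265 in NaCl libraries and between 22555 and 34013 in mannitol libraries. Of the higher runs, 4 genes of scaffold890, numbers 63 to 66, had between 25247 and 33431 counts in NaCl libraries and between 5040 and 6721 counts in mannitol libraries. Neighbours that are near-identical copies may share reads, so the single genes of a run are uncertain. How much the copies share was not tested.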

How the data were processed

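Leaf RNA was sequenced in 78 libraries of 26 groups with 3 biological replicates each. The authors trimmed the reads (cutadapt 1.9.1), aligned them to the CM334 genome (HISAT2) and counted them per gene (featureCounts 1.5.2), versions being those of the submitters' processing notes. The deposited values are these raw read counts for 35884 genes, without normalization. The library protocol keeps strand, and whether the counting used it is not given in the sources used here. The standard errors and p-values come from the spread between replicate libraries.

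Groups came from the sample labels. Counts were fitted in R 4.3.3 with edgeR 4.0.16, as 1 quasi-likelihood model over all 78 libraries with a factor of treatment and time (52 residual degrees of freedom), TMM scaling, filterByExpr (19588 genes) and Benjamini-Hochberg adjustment within a contrast. DEGs had to pass 0.05 in the adjusted p-value and change by more than 1 on the log2 scale. Errors of fold changes are the estimate divided by the root of its F statistic. CPM are counts per 1000000 of the TMM-scaled library total. The edgeR fit was also run on counts simulated with known changes from its own dispersions, for some of the groups. Such counts follow the model by design, so the run cannot show how well the model fits the real libraries. Same-numbered NaCl and mannitol replicates did not deviate together, so no pairing was used.

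The identifiers matched 0 of 48341 genes of the RefSeq name table. Symbols were read from the study's heat map, where each identifier could have up to 1 blurred digit and had to give a single gene that ranked among the first 500 for its stress; 26 of 32 symbols were read, for 27 genes. The prefix shared by all identifiers is left out. Genes without annotation were the 2 higher and 2 lower DEGs with the smallest p-values whose libraries did not overlap. The members and lists were chosen with earlier results of these data known. Alternatives were DESeq2 1.42.0, a replicate block, fewer libraries, other filters, scalings and call limits, a robust fit and each library of the contrast left out.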

Additional observations from a re-analysis of the deposited data

Results flagged for a closer look

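Several results stood out because the NaCl minus mannitol difference at 24 h departed from its mean at 3, 6, 12 and 72 h in the edgeR test of the difference itself. This held for 1246 genes past the adjusted p-value and fold limits. Among the named genes, the departure on the log2 scale was 2.88 for HSP21, 1.31 for ATPS2, 1.10 for ATNAC3, 2.92 for scaffold338.52, 2.68 for scaffold394.89, -2.05 for scaffold411.92 and -2.03 for scaffold623.44. For ATPS2 and ATNAC3 the log2 fold change at 72 h alone was -1.20 and -1.67. HSP21 had few counts in both stresses from 3 to 12 h. The genes without a symbol were picked for their 24 h difference, so their departures are descriptions. The 24 h time point was picked as the peak of the NaCl response, so the other departures may in part follow from that choice.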

How the results depend on the processing

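The count of DEGs at 24 h was between 1543 and 2007 when a library of the contrast was left out (692 to 906 higher, 851 to 1101 lower), and the genes whose difference departed from the other time points were between 948 and 1377. DESeq2 gave 1788 DEGs, 1700 of them shared with the 1860 of edgeR. Library totals gave 584 lower DEGs, a test against a 1.5-fold change gave 605 higher DEGs, and the adjusted p-value alone gave 6821, 3706 higher and 3115 lower. With the adjusted p-value alone, the higher genes were higher in heat in 40.8% and lower in 17.5%, and higher in cold in 51.2% and lower in 12.4%. The lower genes were then higher in heat in 11.2% and lower in 59.1%, and higher in cold in 11.8% and lower in 61.1%. The shares over all genes tested under this limit are not given here. These values are therefore not to be set beside the shares over all genes tested that used the fold limit. Library totals moved the shares of higher genes in heat to 28.7% and 9.34%, and DESeq2 moved the share lower in heat to 20.3%. The shares over all genes tested in these settings are not given here either. The cause of the moves was not tested, beyond the fewer or more genes that a limit lets through.

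Of 496 values of named genes under the alternatives, 447 kept their direction and call, 24 lost it, 9 gained it and 16 changed sign. All sign changes were in genes that did not pass. CUTA had -0.01 with the 6 libraries alone, without a filter, with the 1 CPM filter and with upper-quartile scaling. With library totals CTL2 had 0.07 and SRG3 0.16. Leaving out a library gave -0.04 to 0.05 for CUTA, -0.24 to 0.01 for CTL2, -0.13 to 0.45 for PSBB, -0.17 to 0.04 for SRG3 and -0.02 to 0.11 for PGR5-LIKE A. Outside the left-out libraries, AAP7 lost its call without a filter, with the 1 CPM filter and with upper-quartile scaling (0.35 each), and UBC13 lost it without a filter (0.25).

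The replicate numbers did not pair the samples. The deviations of same-numbered NaCl and mannitol libraries correlated by 0.0203, 0.101 and -0.0191, and a fit with the replicate block gave 1865 DEGs, 954 higher and 911 lower. Genes with few counts limit what can be read, since 132 higher and 50 lower DEGs were at the floor in the other group.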
